A study of Mus musculus with 32 samples.

Results

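Integrin subunits, laminin chains and nidogens were measured in whole-lung RNA of newborn mice held in 21% O2 or in hyperoxia (85% O2). The members were every probe that the array named for an integrin α or β subunit, a laminin α, β or γ chain, or either nidogen. The array carried 54 such probes of 39 genes, and 53 probes of 38 genes passed the detection filter, in that some group had all 4 of its arrays well above background for them. These 38 were among 18961 gene symbols that passed the same filter, and comprised 18 α subunits, 7 of the 8 β subunits, 11 laminin chains and both nidogens. Itgb8 (the β8 subunit) did not pass in any group and is named only. The rule takes the members by their names alone.

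Integrins are αβ pairs in the cell membrane that hold cells to the matrix and signal in both directions, and the pairing decides the ligand. Laminins are αβγ trimers that form the sheet of the basement membrane on which epithelial and endothelial cells sit, and nidogens bridge laminin to the collagen IV network. In the lung, laminin that holds the chains encoded by Lama3 and Lamb3 anchors epithelium through the α3β1 and α6β4 integrins. The α8β1 integrin belongs to interstitial fibroblasts and smooth muscle, αvβ6 to epithelium, where it activates latent TGF-β, and the β2 and β7 integrins to leukocytes.

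All 32 animals were wild-type C57Bl/6J pups of either sex, randomized to litters of balanced size and nursed by dams rotated between the oxygen levels. Each pup received either a scrambled locked nucleic acid oligonucleotide (antagomiR-scrambled, SCR) or antagomiR-34a (A34a, called antimiR-34a below), at 10 mg/kg into the peritoneum at P1 and again at P3. Exposure to 85% O2 started at P1. Lungs were taken at P5 or P14, which the labels' protocol gives as P5.5 and P14.5, so age, oxygen and oligonucleotide formed 8 groups with n = 4 mice each. Both control groups at each age had thus been injected with an oligonucleotide, no mouse was left uninjected, and the oligonucleotide reached the whole animal. The labels' protocol also gives pentobarbital for the younger and isoflurane for the older mice, while the study's methods give pentobarbital, so anaesthetic may have differed with age. The microRNA that antimiR-34a pairs with is printed because it sets what the oligonucleotide comparisons ask, with its seed (bases 2 to 8) in capitals. Its position is 4:150068473-150068494 on the plus strand of GRCm38.p6 (RefSeq), and it shares the seed with miR-34b-5p, which lies at 9:51103610-51103632 on the minus strand.
mmu-miR-34a-5p: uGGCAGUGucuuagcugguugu
mmu-miR-34b-5p: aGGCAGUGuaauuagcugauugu
No probe was named for Mir34a, so the arrays did not measure whether the antimiR had acted. The study reported that by P5 the antimiR lowered functional miR-34a in lungs, left miR-34b unchanged and affected miR-34c moderately.

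Levels are log2 signals from which each array's 75th percentile was subtracted, and a difference in log2 levels is the log2 fold change. Since probes differ in brightness, levels were compared only between mice for the same probe. Each of the 4 slides held the 8 arrays of 1 age and 1 oxygen level, and on each slide the scrambled and the antimiR-34a mice lay in different rows, so oxygen and slide, age and slide, and antimiR and row cannot be told apart. The 75th percentile ranged from 9.2 to 10.2 and between 33614 and 40786 probes were well above background per array. At P14 in 21% O2 it was 10.12 to 10.18 in scrambled mice 1 to 3 but 9.34 in mouse 4, and 9.56 to 9.64 in antimiR-34a mice 2 to 4 but 10.2 in mouse 1. Each thus lay with the other group, in this and in the brightest Itgam probe, and whether their labels were exchanged was not tested; this touches every antimiR value in 21% O2 at P14. Without both, 22 of the 25 members called for oxygen at P14 in scrambled mice passed again in the same direction, Itgb7 was added, and no member other than Itgam moved by more than 0.12; in antimiR-34a mice 26 of 27 calls passed again, for age all 21, with 4 added, and for age by oxygen 15 of 17. Below, calls that ended without both are named, and Itgam is given with and without both. All 10 type I, 10 type II and 10 endothelial markers and the 11 leukocyte markers measured were well above background on every array. Between 21% and 85% O2 in scrambled mice, the mean level of 10 fibroblast markers was 3.8 to 4.39 per mouse against 3.28 to 3.54 at P5 and 4.29 to 4.40 against 3.68 to 3.77 at P14, with 7 of 10 genes called lower and 1 higher at each age. Type I pneumocyte markers were 3.36 to 3.62 against 3.75 to 3.83 at P5, with 7 of 10 called higher and 1 lower, and 4.07 to 4.13 against 4.19 to 4.21 at P14 (4 higher, 2 lower). Type II markers were 5.71 to 5.74 against 5.25 to 5.5 at P14 (2 higher, 7 lower), and smooth muscle markers 2.99 to 3.36 against 2.82 to 2.96 at P5 (1 higher, 5 lower) and 3.06 to 3.14 against 3.29 to 3.44 at P14 (4 higher, 1 lower). Skeletal muscle markers were -3.03 to 2.85 against -4.08 to -3.30 at P5 (5 of 10 called lower, 0 higher) and -2.27 to -1 against -3.84 to -3.33 at P14 (7 lower, 0 higher). Endothelial markers were 3.06 to 3.27 against 3.18 to 3.30 at P5 (4 of 10 called higher, 3 lower) and 3.47 to 3.63 against 3.24 to 3.41 at P14 (4 higher, 4 lower). The leukocyte marker mean was 1.61 to 1.77 against 1.78 to 2.14 at P5 (5 of 11 called higher, 0 lower) and 1.94 to 2.28 against 1.96 to 2.13 at P14 (3 higher, 4 lower). Beside these counts, 21.4% of all genes were called higher and 24.8% lower at P5, and 32% and 31.1% at P14. In such bulk samples fewer cells of a type and less RNA per cell cannot be told apart. The part of these marker values in the member results was not tested. The lung of scrambled mouse 4 at P5 in 21% O2 stood apart, with a skeletal muscle marker mean of 2.85, which was at most -2.08 in the other mice of its group, and an airway epithelium marker mean of 3.55 against 2.19 to 2.69.

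Steady-state levels of the β6, β4 and β1 integrin subunits and of the Lamb3, Lama5 and Lama1 chains were higher in hyperoxia at both ages, and those of Nid2 and Lamc3 were lower. In scrambled mice at P5, 19 of 37 members tested differed between oxygen levels, 16 higher and 3 lower in 85% O2, by limma with Benjamini-Hochberg adjustment over all probes at an adjusted p under 0.05. That is 51.4% of the members, where 46.3% of all 17929 genes passed, so the share called in either direction is close to the background. By direction, 43.2% of the members were higher and 8.11% lower, where 21.4% and 24.8% of all genes were. The median log2 fold change was 0.10 for the members and -0.03 for all genes. At P14, 25 of 37 differed (15 higher, 10 lower), which is 67.6% against a background of 63% of 18733 genes, with medians of 0.13 and -0.01. Here 40.5% of the members were higher and 27% lower, beside 32% and 31.1% of all genes. All β subunits that passed the test were higher, 5 of 7 at P5 and 4 of 7 at P14. Of 17 α subunits, 6 rose and 1 fell at P5, whereas 6 rose and 5 fell at P14. Among 11 laminin chains, 5 were higher at each age, with 1 lower at P5 and 3 at P14. With quantile normalization 19 members were also called at P5, 17 of them shared, with 14 higher and 5 lower. The test named in the study's methods called 12 at P5 (8 higher, 4 lower). Over all 35982 probes tested it called 10736, where limma called 15812.

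**Figure D1:**
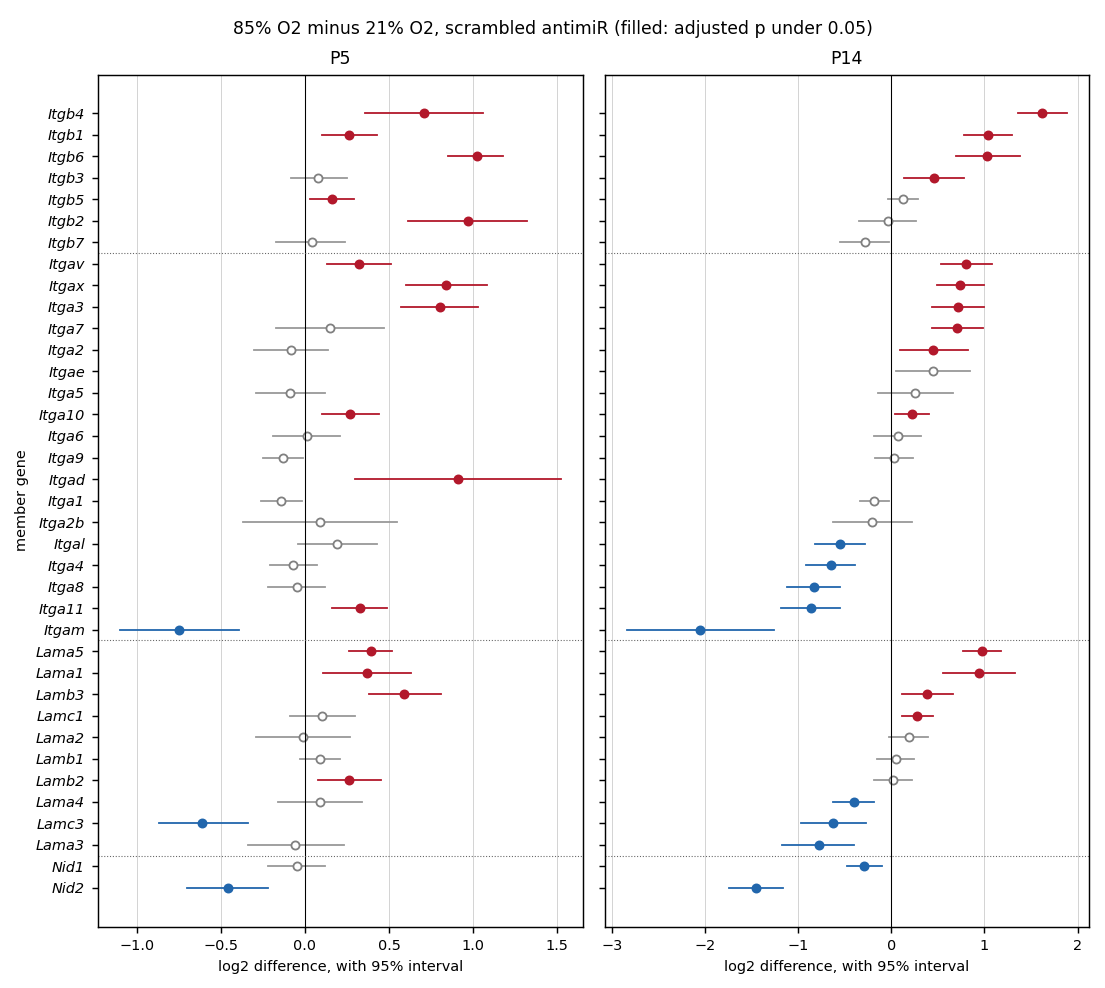
Log2 fold change between 85% and 21% O2 in scrambled mice for the members named here (x axis, log2 units, on a scale of its own at each age) at P5 and P14, grouped by role, with bars for the 95% confidence interval and filled points where the adjusted p was under 0.05. Itgb4 at P14 lies farthest to the right, at 1.62, and Itgam and Nid2 farthest to the left, at -2.05 and -1.45.

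The 250 bases before the annotated start are printed for 4 members that stand for the patterns described next: Itgb6, higher to a like extent at both ages; Itgb1 and Lama5, higher by more at P14 than at P5; and Itga8, called lower at P14 and not at P5. They come from RefSeq (GRCm38.p6), which gave a start for 24 of the 39 genes, and run 5′ to 3′ on the strand of the gene, ending just before the start. Capitals mark a GC box (GGGCGG), an AP-1 motif (TGANTCA) or a TEAD motif (GGAATG), searched on both strands. The Itgb1 window is 8:128685404-128685653 (plus strand), that of Itgb6 2:60722604-60722853 (minus), that of Lama5 2:180225860-180226109 (minus) and that of Itga8 2:12301945-12302194 (minus).
Itgb1: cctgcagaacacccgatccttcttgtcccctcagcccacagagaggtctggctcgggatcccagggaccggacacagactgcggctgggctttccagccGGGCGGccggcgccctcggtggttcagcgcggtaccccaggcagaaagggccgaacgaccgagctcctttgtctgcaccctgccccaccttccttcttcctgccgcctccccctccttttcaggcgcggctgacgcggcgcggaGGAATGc
Itgb6: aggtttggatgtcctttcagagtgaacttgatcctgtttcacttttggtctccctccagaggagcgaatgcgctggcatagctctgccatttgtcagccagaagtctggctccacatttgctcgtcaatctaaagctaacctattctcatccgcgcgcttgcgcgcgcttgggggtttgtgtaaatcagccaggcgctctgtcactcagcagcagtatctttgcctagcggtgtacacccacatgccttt
Lama5: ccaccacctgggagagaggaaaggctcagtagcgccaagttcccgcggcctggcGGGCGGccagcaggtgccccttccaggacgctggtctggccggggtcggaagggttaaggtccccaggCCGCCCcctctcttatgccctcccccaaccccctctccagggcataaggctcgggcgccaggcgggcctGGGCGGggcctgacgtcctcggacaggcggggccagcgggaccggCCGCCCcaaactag
Itga8: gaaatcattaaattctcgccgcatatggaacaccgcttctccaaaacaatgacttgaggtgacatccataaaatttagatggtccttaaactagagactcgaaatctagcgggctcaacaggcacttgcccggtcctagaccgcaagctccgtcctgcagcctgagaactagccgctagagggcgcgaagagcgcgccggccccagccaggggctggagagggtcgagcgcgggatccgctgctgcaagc
The Itgb1 window holds 1 GC box and 1 TEAD motif, that of Lama5 4 matches to the GC box, and those of Itgb6 and Itga8 none of the letters searched. Of the 27 windows of members, 10 hold a GC box, 1 an AP-1 motif (Itgax) and 4 a TEAD motif (Itga10, Itgb1, Lamb3 and Nid1). Among all 32841 windows of this length the shares were 32.7%, 6.75% and 12.6%. A match is only a description of the letters, and another Itgb6 start on record is not printed.

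Itgb1 encodes the β1 subunit, the common partner of most matrix-binding α subunits. At P14 its log2 level was 2.47, 2.61, 2.70 and 2.56 in the 4 scrambled mice in 21% O2 and 3.62, 3.64, 3.61 and 3.62 in 85% O2. Every mouse in hyperoxia thus lay well above every mouse in 21% O2, with means of 2.58 ± 0.09 and 3.62 ± 0.01 (SD, n = 4). The log2 fold change was 1.04 ± 0.12 (SE), or 2.05-fold (adjusted p = 7.45e-06, limma). At P5 the mice lay at 3.11, 3.37, 3.30 and 3.13 in 21% O2 and at 3.55, 3.47, 3.38 and 3.56 in 85% O2, groups that again did not overlap but nearly touched. The log2 fold change was 0.26 ± 0.08 (adjusted p = 0.0117; 0.0532 by the methods' test). A further Itgb1 probe gave 0.24 at P5 and 1.04 at P14.

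Itgb4 encodes β4, the hemidesmosomal subunit that pairs with α6 on epithelial cells above the basement membrane (probe at 11:115869666-115869725, plus strand, mm9). At P14 the scrambled mice lay at -0.12, -0.26, -0.25 and -0.32 in 21% O2 and at 1.32, 1.32, 1.47 and 1.44 in 85% O2. The groups were far apart and each was tight, and the log2 fold change of 1.62 ± 0.12, or 3.08-fold, was the largest rise among the brightest probes of the members (adjusted p = 1.58e-07, limma). At P5 the values were 0.39, 0.11, -0.03 and 1.00 in 21% O2 and 1.28, 0.97, 1.00 and 1.07 in 85% O2. The groups met only at mouse 4 in 21% O2, the animal with the high muscle and airway marker levels. The log2 fold change at P5 was 0.71 ± 0.16 (adjusted p = 0.00302), and 0.92 without that mouse; the test named in the study's methods gave an adjusted p of 0.106. Itga6, the partner of Itgb4, had log2 fold changes of 0.01 at P5 and 0.07 at P14 and passed the test at neither age.

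Itgb6 encodes β6, the epithelial partner of αv. At P5 it stood at 0.95, 1.13, 1.17 and 0.88 in 21% O2 and at 1.90, 2.13, 2.05 and 2.13 in 85% O2. The highest mouse in 21% O2 was far below the lowest in 85% O2, and the log2 fold change of 1.02 ± 0.08 (2.03-fold, adjusted p = 2.98e-07, limma) was the largest at P5 among the brightest probes of the members. At P14 the levels were 1.92, 1.79, 2.05 and 1.72 in 21% O2 and 2.96, 2.96, 2.80 and 2.89 in 85% O2. All 8 mice lay higher than their counterparts at P5, and the difference between oxygen levels was again 1.03 ± 0.16 (2.05-fold, adjusted p = 8.78e-05). Itgav, the αv subunit, rose by 0.32 at P5 (adjusted p = 0.0105) and by 0.80 at P14 (adjusted p = 0.000111). Among the remaining β subunits, Itgb5, another αv partner, had 0.16 at P5 (adjusted p = 0.0499, lost in 12 of 17 alternatives) and 0.13 at P14 (not called), and Itgb3, the platelet and vascular αv partner, was called only at P14, at 0.46 (adjusted p = 0.0158; 0.40 and adjusted p = 0.0523 without both arrays that stood apart).

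**Figure D2:**
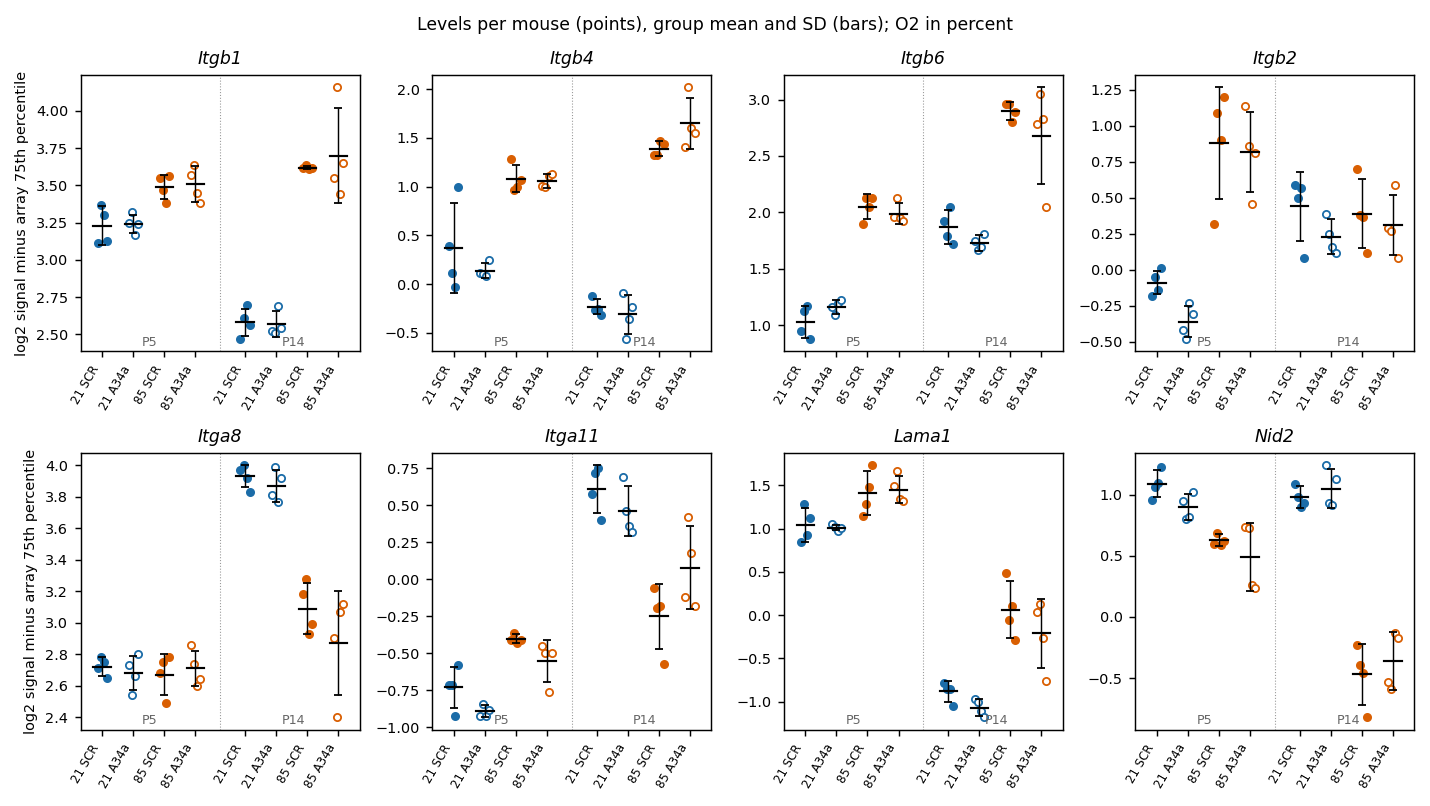
Log2 level, with the 75th percentile of its array subtracted (y axis), of Itgb1, Itgb4, Itgb6, Itgb2, Itga8, Itga11, Lama1 and Nid2 in each mouse of the 8 groups (x axis), blue in 21% and orange in 85% O2, filled for scrambled (SCR) and open for antimiR-34a mice (A34a), with a line at the mean of the 4 mice and bars for the SD. Itgb1 at P14 lies between 2.47 and 2.70 in scrambled mice in 21% O2 and between 3.61 and 3.64 in 85% O2.

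The laminin-binding subunits Itga3 and Itga7 were higher in hyperoxia at P14, Itga3 also at P5. Itga3, the laminin-binding α3 subunit of epithelium, rose by 0.80 ± 0.11 at P5 (adjusted p = 4.25e-05) and by 0.72 ± 0.13 at P14 (adjusted p = 0.000336). Itga7, the laminin receptor of muscle, had 0.15 at P5 (not called; 0.30 without mouse 4 of the 21% O2 group, adjusted p = 0.0674) and rose by 0.71 at P14 (adjusted p = 0.000255). Itga10, a collagen-binding subunit, was called higher at both ages with its brightest probe, by 0.27 and 0.22, while its other probe gave 0.14 and 0.11 and was called at neither age. Itga2, another collagen receptor, was called only at P14, at 0.45 (adjusted p = 0.0326). Without both arrays that stood apart neither call at P14 held (adjusted p = 0.121 for Itga10 and 0.0838 for Itga2). Itga5, the classical fibronectin receptor subunit, had -0.09 and 0.26, Itga1, a collagen receptor, -0.14 and -0.18, and Itga9 -0.13 and 0.03. Like Itga2b, the platelet subunit (0.09 and -0.21), they were called at neither age.

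Itga8 and Itga11, subunits of mesenchymal cells, were lower in hyperoxia at P14. Itga8 (α8, probe at 2:12028462-12028521, minus strand, mm9) stood at 3.97, 4.00, 3.92 and 3.83 in 21% O2 and at 3.18, 3.28, 2.93 and 2.99 in 85% O2 at P14. The groups were widely apart, with a log2 fold change of -0.83 ± 0.13 (1.78-fold lower, adjusted p = 0.000122, limma), whereas at P5 the ranges of 2.65 to 2.78 and 2.49 to 2.78 coincided (log2 fold change -0.05, adjusted p = 0.633). Itga11 (α11, a collagen receptor of fibroblasts; probe at 9:62631667-62631726, plus strand, mm9) was called in opposite directions at the 2 ages by limma. At P5 it rose, from -0.71, -0.71, -0.92 and -0.58 to -0.41, -0.36, -0.43 and -0.41, a log2 fold change of 0.33 ± 0.08 (adjusted p = 0.00337; 0.0517 by the methods' test). At P14 it fell, from 0.58, 0.72, 0.75 and 0.40 to -0.06, -0.19, -0.18 and -0.57, a log2 fold change of -0.86 ± 0.15 (1.82-fold lower, adjusted p = 0.000184). The groups overlapped at neither age. The fibroblast marker mean was lower in 85% O2 at both ages, and the part of fibroblast content in these values was not tested.

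The leukocyte integrins did not move as a block. Itgb2, the shared β2 subunit (probe at 10:77027978-77028037, plus strand, mm9), rose at P5 from -0.18, -0.05, -0.14 and 0.01 to 0.32, 1.09, 0.90 and 1.2, a log2 fold change of 0.97 ± 0.17 (adjusted p = 0.000357, limma). At P14 its levels of 0.59, 0.50, 0.57 and 0.08 in 21% O2 and 0.70, 0.38, 0.37 and 0.12 in 85% O2 overlapped throughout, with a log2 fold change of -0.04 (95% confidence interval -0.35 to 0.27). Itgax, the αX subunit of dendritic cells and alveolar macrophages, rose by 0.84 ± 0.11 at P5 (adjusted p = 4.1e-05) and by 0.74 ± 0.12 at P14 (adjusted p = 0.000108). Itgal, the αL subunit of lymphocytes, and Itga4, the α4 subunit that binds Vcam1, were called lower only at P14, at -0.55 (adjusted p = 0.00181) and -0.65 (adjusted p = 0.000394). Itgb7, a partner of α4 and αE, was called at neither age, with 0.04 and -0.28, and Itgae, tested only at P14, had 0.45 (adjusted p = 0.0507). The other Itgal probes gave 0.25 and -0.86 at P5, the last called lower, so its value at P5 depended on the probe. Itgad, a further β2 partner, was dim and passed the filter at P5 only through the scrambled mice in 85% O2, with 2 of 4 arrays above background in 21% O2, so a difference was built into its selection and its call at P5, counted above, is not read as a result. It was lost with normexp (0.14, adjusted p = 0.38) and without mouse 4 in 21% O2 (adjusted p = 0.0611). At P5 the leukocyte marker mean was higher in 85% O2, with 5 of 11 markers called higher and 0 lower. Itgb2 and Itgax were called higher there, whereas Itga4 and Itgb7 were not called and an Itgal probe was called lower. The part of leukocyte content in these values was not tested.

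Itgam, the αM subunit of neutrophils and macrophages, depended on the probe. The brightest probe (7:135261755-135261814, plus strand, mm9) stood at P14 at 5.53, 5.55, 5.06 and 6.95 in 21% O2 and at 3.84, 3.81, 3.50 and 3.76 in 85% O2, a log2 fold change of -2.05 ± 0.37 (4.13-fold lower, adjusted p = 0.000301, limma). Mouse 4, at 6.95, was far above the others of its group and is the animal whose array had the low 75th percentile; without both arrays that stood apart the value was -1.65. In antimiR-34a mice in 21% O2 the same probe stood at 5.5, 6.98, 6.94 and 7.01, so that the 4 bright arrays of the slide lay at 5.06 to 5.55 and the 4 dim ones at 6.94 to 7.01. At P5 it fell from 4.01, 4.18, 4.19 and 4.32 to 3.88, 3.33, 3.15 and 3.36 (log2 fold change -0.75 ± 0.17, adjusted p = 0.0025). Of the 3 Itgam probes, only this probe was called at P14, where the other probes ranged up to -0.07, and at P5 a dimmer probe was called in the opposite direction, at 0.32. The mean over the 3 probes gave -0.80 at P14 (adjusted p = 0.000138) and -0.10 at P5 (adjusted p = 0.228).

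**Figure D3:**
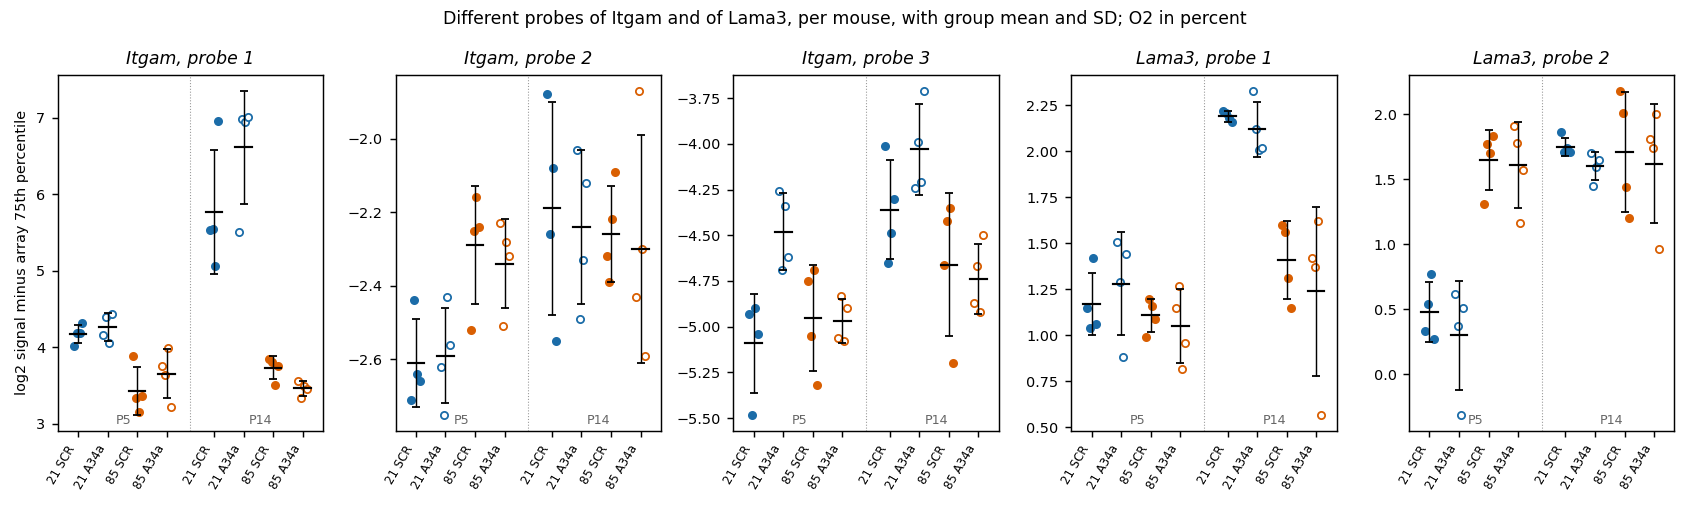
Log2 level, with the 75th percentile of its array subtracted (y axis), of the 3 Itgam and the 2 Lama3 probes in each mouse of the 8 groups (x axis), blue in 21% and orange in 85% O2, filled for scrambled and open for antimiR-34a mice, with lines at the means and bars for the SD. Each panel has its own scale. The brightest Itgam probe spreads from 5.06 to 7.01 at P14 in 21% O2, while its other probes stay between -4.65 and -1.88 there.

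Of the chains of the laminin that anchors epithelium, Lamb3 rose at both ages and Lama3 depended on the probe. Lamb3, the β3 chain, rose by 0.59 ± 0.10 at P5 (adjusted p = 0.000322) and by 0.38 ± 0.13 at P14 (adjusted p = 0.0174; 0.0889 by the methods' test), where 1 spot of the 85% O2 group was dropped as an outlier and n = 3 in that group. For Lama3, the α3 chain, the brighter of 2 probes had -0.06 at P5 (not called) and -0.78 ± 0.18 at P14 (adjusted p = 0.00192). The other probe stood at 0.33, 0.54, 0.77 and 0.27 in 21% O2 and at 1.31, 1.77, 1.70 and 1.83 in 85% O2 at P5, groups far apart with a log2 fold change of 1.17, and gave -0.04 at P14. The probes lie at 18:12741458-12741517 and 18:12741067-12741126 (mm9), and the mean over both was 0.56 at P5 (limma adjusted p = 0.013). Whether Lama3 was called at P5 thus depended on the probe. For both probes the oxygen difference was called more negative at P14 than at P5, with changes of -1.22 and -0.73.

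Lama5 and Lama1, the α chains of laminins of epithelial basement membranes, rose at both ages. Lama5 (probe at 2:179911079-179911138, minus strand, mm9) went at P14 from 4.76, 4.74, 4.90 and 4.65 to 5.86, 5.68, 5.68 and 5.72, with no mouse in between the groups. The log2 fold change was 0.97 ± 0.10 (1.96-fold, adjusted p = 1.6e-06, limma), against 0.39 ± 0.06 (adjusted p = 0.000161) at P5. Lama1, the chain of embryonic laminin (probe at 17:68171924-68171983, plus strand, mm9), went at P14 from -0.78, -0.85, -0.85 and -1.05 to 0.49, -0.06, 0.10 and -0.29. Mice in hyperoxia were more spread out but all above those in 21% O2, by 0.94 ± 0.18 (1.92-fold, adjusted p = 0.000558). At P5 Lama1 was called at 0.37 with overlapping groups (adjusted p = 0.0247), and the methods' test gave an adjusted p of 0.129. Of the chains of mesenchymal and vascular basement membranes, Lama4 (α4, endothelial) was called only at P14, at -0.40 (adjusted p = 0.00392, groups overlapping), beside the lower endothelial marker mean given above, and Lama2 (α2, muscle) at neither age. The broadly used Lamb1 had 0.09 and 0.05 and was called at neither age, Lamb2 was called only at P5 (0.26, adjusted p = 0.0245, lost in 9 of 17 alternatives) and Lamc1 only at P14 (0.28, adjusted p = 0.00767). Lamc3, the γ3 chain, fell at both ages, with log2 fold changes of -0.61 ± 0.12 (adjusted p = 0.00138) and -0.62 ± 0.16 (adjusted p = 0.00476).

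Nid2 was lower in hyperoxia at both ages, while Nid1 depended on the probe. Nid2 (nidogen-2, probe at 14:20630490-20630549, plus strand, mm9) stood at P14 at 1.09, 0.98, 0.90 and 0.93 in 21% O2 and at -0.23, -0.39, -0.46 and -0.82 in 85% O2. No mouse in hyperoxia came near those in 21% O2, and the log2 fold change was -1.45 ± 0.13 (2.73-fold lower, adjusted p = 9.98e-07, limma). At P5 the mice lay at 0.96, 1.06, 1.10 and 1.23 in 21% O2 and at 0.60, 0.69, 0.59 and 0.62 in 85% O2, again apart, with a log2 fold change of -0.46 ± 0.11 (adjusted p = 0.00443). Nid1 (nidogen-1) stood at -0.05 (log2 fold change) at P5 and fell at P14, with -0.29 ± 0.09 (adjusted p = 0.012), for its brightest probe. Of its 3 probes at P14, 2 were called lower and 1 higher, over a range of -0.31 to 0.54, and their mean gave -0.02 (adjusted p = 0.859).

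Genes that work beside the members were taken from 3 lists of 20. Among other basement membrane genes, 9 rose and 2 fell in hyperoxia at P5, while 8 rose and 3 fell at P14, with medians of 0.22 and 0.23. That is 55% at each age, beside 46.3% and 63% of all genes. Collagen IV chains led at P5: Col4a3 rose by 0.82 (adjusted p = 0.000104), Col4a2 by 0.68 (adjusted p = 0.00016) and Col4a4 by 0.58 (adjusted p = 0.000119). At P14 Col15a1 and Col18a1, the collagens that flank the basement membrane, rose by 1.58 (adjusted p = 0.000181) and 1.26 (adjusted p = 9.11e-05), and Hspg2, which encodes perlecan, by 0.83 (adjusted p = 1.88e-05).

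Among 20 adaptors that link integrins to actin, 9 rose and 2 fell at P5, while 8 rose and 3 fell at P14, again 55% at each age, with medians of 0.18 and 0.07. Fermt1 (kindlin-1, the epithelial activator of β1 integrins) was dim and passed the filter only through groups in 85% O2, so a difference was built into its selection and its calls, counted above, are not read as results. At P5 it had 1.07 (adjusted p = 0.0467), with 2 of 4 arrays above background in 21% O2. At P14 it was not well above background on any array in 21% O2 and was at least 2.56-fold higher in 85% O2 (adjusted p = 4.3e-05; normalized means -7.56 and -5.04); such a bound sets the mean of the bright group against the higher, per array, of the dim signal and the lowest signal well above background. Parvb (β-parvin) rose by 0.59 and 0.62 (adjusted p = 2.74e-05 and 3.99e-05), and Actn1 (α-actinin-1) was called only at P14, at 0.82 (adjusted p = 0.00127). Fermt3 (kindlin-3 of blood cells) rose by 0.59 at P5 (adjusted p = 0.00576) and fell by 0.59 at P14 (adjusted p = 0.00183).

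Among integrin ligands outside the basement membrane, 6 of 19 tested rose and 5 fell at P5, whereas 9 of 20 rose and 6 fell at P14, or 57.9% and 75% beside 46.3% and 63% of all genes, with medians of 0.09 and 0.24. Spp1 (osteopontin, an RGD ligand) rose most, by 2.22 ± 0.39 at P5 (4.65-fold, adjusted p = 0.000431) and by 2.70 ± 0.34 at P14 (6.52-fold, adjusted p = 1.45e-05). Icam1, the ligand of β2 integrins, rose by 1.45 at P5 (adjusted p = 4.27e-05) and Cyr61 by 0.89 (adjusted p = 8.44e-05). Vtn (vitronectin, a ligand of the αv integrins) fell at P14 from a mean level of 0.15 to -2.83, or 7.86-fold (adjusted p = 2.89e-07). Fga, a fibrinogen chain, was not well above background on any array in 85% O2 at P14 and was at least 3.62-fold lower than in 21% O2 (adjusted p = 9.58e-05; normalized means -6.91 and -4.13). It passed the filter only through groups in 21% O2, which built a difference into its selection.

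The oxygen comparison in antimiR-34a mice set other arrays against each other than that in scrambled mice, on the same slides, and the fit shared its probe filter and its estimate of the spread with the scrambled arrays. There 23 of 37 members differed at P5 (17 higher, 6 lower; 62.2%, against 47.6% of all genes, of which 21.6% were higher and 26% lower) and 27 of 37 at P14 (18 higher, 9 lower; 73%, against 65.9% of all genes, with 34.3% higher and 31.6% lower). The median log2 fold change of the members was 0.20 at P5 and 0.22 at P14, where that of all genes was -0.03 and 0.02. At P14 Itgb4 had 1.96 (adjusted p = 2.67e-08), Itgb1 1.13 (adjusted p = 3.08e-06), Itgb6 0.95 (adjusted p = 0.000146) and Nid2 -1.41 (adjusted p = 1.17e-06). At P5 Itgb2 led with 1.18 (adjusted p = 6.26e-05), followed by Itgax with 1.01 (adjusted p = 6.64e-06), Itgb4 with 0.93 (adjusted p = 0.000385) and Itgb6 with 0.82 (adjusted p = 1.62e-06). In this arm at P5 leukocyte markers were 1.52 to 1.81 in 21% O2 against 1.88 to 2.07 in 85% O2 (6 of 11 called higher, 0 lower), and type I markers 3.61 to 3.67 against 3.85 to 3.94 (5 of 10 higher, 1 lower). Fibroblast markers at P5 were 5 of 10 lower and 0 higher. At P14, 5 of 10 fibroblast markers were called lower and 1 higher, and 7 of 10 type II markers lower and 1 higher. Of 10 smooth muscle markers 5 were higher and 2 lower at P14, and of 10 skeletal muscle markers 6 were lower and 0 higher. The part of all these markers in the member values was not tested. Itga8 at P14 fell by 1.00 on the log2 scale (adjusted p = 2.26e-05) and Itga11 by 0.38 (adjusted p = 0.0332, groups overlapping, a call lost without both arrays that stood apart). Itga7 rose at both ages in this arm, by 0.69 and 0.97. Itgam had -3.15 at P14 and -0.61 at P5 with its brightest probe, -3.52 at P14 without both arrays that stood apart, and -1.30 and -0.28 for the mean over its probes. Nid1 at P14 had -0.0041 (95% confidence interval -0.19 to 0.19) and Lamc3 -0.12, and neither passed the test.

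**Figure D4:**
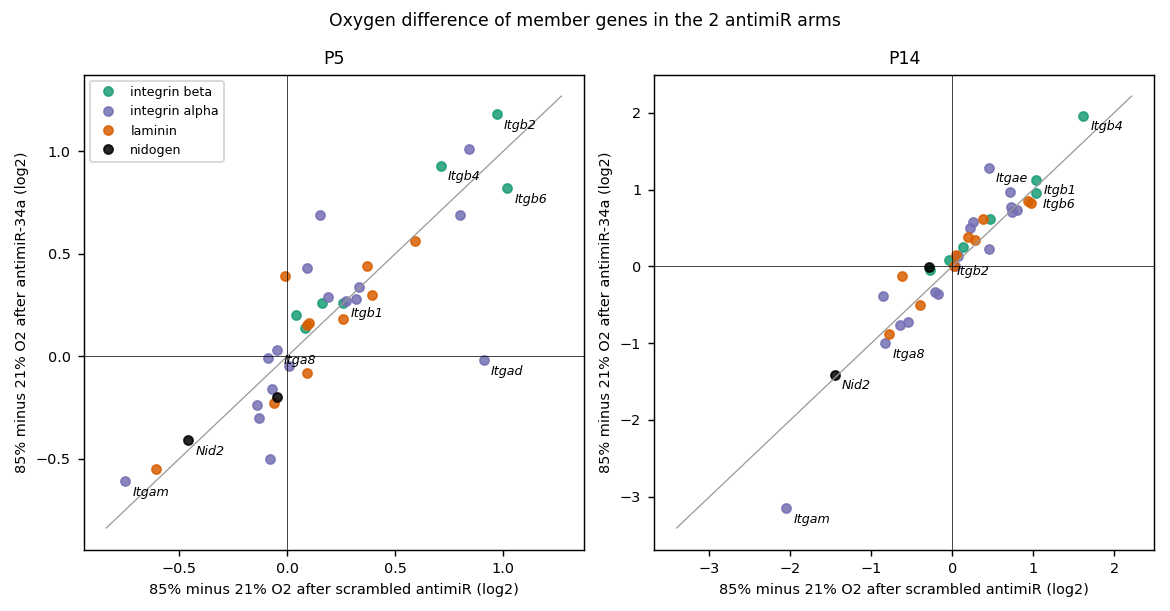
Log2 fold change between 85% and 21% O2 of the members named here in scrambled mice (x axis) and in antimiR-34a mice (y axis), at P5 and P14, with the line of equal change. Itgb4 at P14 lies at 1.62 and 1.96 and Nid2 at -1.45 and -1.41.

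No member passed the test for antimiR-34a against scrambled antimiR at either age or oxygen level. In 85% O2, 0 of 37 members passed at P5, where 0.0892% of all genes did, and 0 of 37 at P14, where 2.67% did. Unadjusted p (limma) was under 0.05 for 3 and 6 members, beside 2515 of 17929 and 3079 of 18733 genes. The smallest adjusted p of a member was 0.207 at P5 and 0.115 at P14 (limma). In 21% O2 the counts were 0 of 37 at P5, against 0.128% of all genes, and 0 of 37 at P14, against 0% of all genes. Unadjusted p was under 0.05 for 3 members and 1 member, beside 3075 of 17929 and 1544 of 18733 genes. The difference of the antimiR effect between oxygen levels was called for 0 of 37 members at both ages, against 0.0669% of all genes at P5 and 0.0747% at P14. Unadjusted p was under 0.05 for 5 members each, beside 2064 of 17929 and 2486 of 18733 genes. The test named in the study's methods also called 0 members in all 4 of these contrasts within an oxygen level.

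The members with the 3 smallest p-values in 85% O2 at each age differed as follows, none past the threshold. At P14 Nid1 stood at 4.58, 4.64, 4.52 and 4.47 in scrambled and at 4.63, 5.05, 4.69 and 4.97 in antimiR-34a mice. The groups overlapped slightly, and the difference was 0.28 (95% confidence interval 0.09 to 0.47, adjusted p = 0.115) for the brightest probe, while its 3 probes ranged from -0.15 to 0.28. Itga10 differed by 0.26 (0.07 to 0.44, adjusted p = 0.139), from 0.69, 0.49, 0.76 and 0.69 to 0.86, 0.81, 0.94 and 1.05. Itgae, the αE subunit of epithelium-bound lymphocytes, differed by 0.50 (0.10 to 0.90, adjusted p = 0.188), from -4.56, -4.37, -4.39 and -4.47 to -4.11, -4.09, -3.74 and -3.87. These last groups did not overlap, although neither difference passed. At P5 Itgb5 stood at 3.83, 3.81, 3.64 and 3.81 in scrambled and at 4.00, 3.88, 4.06 and 3.93 in antimiR-34a mice, a difference of 0.20 (0.07 to 0.33, adjusted p = 0.207). Itgad was not well above background on any array of antimiR-34a mice and was at least 1.17-fold lower there (adjusted p = 0.233; normalized means -6.32 and -5.44), with a filter passed only through the scrambled mice. Itga2 differed by -0.23 (-0.46 to -0.01, adjusted p = 0.364). For the members with the clearest oxygen response the intervals in 85% O2 at P14 were -0.18 to 0.34 for Itgb1, -0.0027 to 0.52 for Itgb4, -0.56 to 0.12 for Itgb6 and -0.17 to 0.41 for Nid2.

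**Figure D5:**
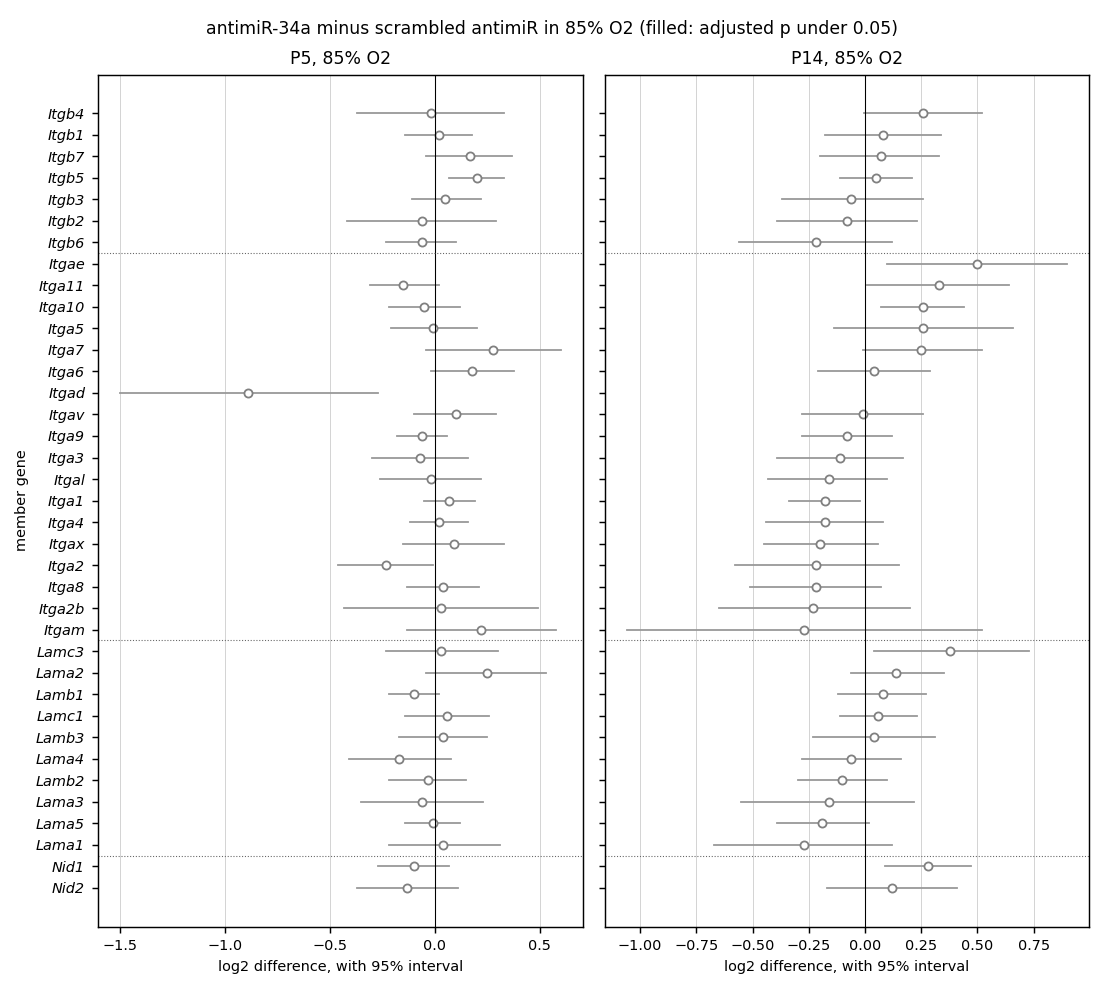
Difference in log2 level between antimiR-34a and scrambled mice in 85% O2 (x axis, on a scale of its own at each age) for the members named here at P5 and P14, with bars for the 95% confidence interval. All points are open, since no member passed at an adjusted p under 0.05, and Itgae at P14 lies at 0.50. Itgad at P5 is drawn at its measured difference although it was not well above background in antimiR-34a mice.

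In 21% O2 at P14 the arrays that stood apart decided the result. Itgam differed by 0.83 between antimiR-34a and scrambled mice (95% confidence interval 0.05 to 1.62, adjusted p = 0.474), and by 1.59 (adjusted p = 8.17e-06) without scrambled mouse 4 and antimiR-34a mouse 1. The same choice raised the probes called in this comparison from 0 of 38455 to 6729 of 40087, and brought calls in the difference between oxygen levels for Itgam (-1.86, adjusted p = 4.71e-05) and Itgae (1.06, adjusted p = 0.0123). Without scrambled mouse 4 alone, Itgam differed by 1.23 (adjusted p = 0.0486).

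The oxygen difference itself changed between P5 and P14 in scrambled mice for 17 of 38 members, tested as an interaction over all 32 arrays; this is 44.7%, where 43.3% of all genes passed. It was more negative at P14 for 10 and more positive for 7, where 19% and 24.3% of all genes were. Itga11 (-1.19 ± 0.17, adjusted p = 5.19e-06), Itgb2 (-1.01 ± 0.23, adjusted p = 0.000909) and Nid2 (-0.99 ± 0.18, adjusted p = 0.000102) were among the members with the largest differences. Itgam (-1.30 ± 0.42, adjusted p = 0.0147) was also among them, with -0.91 without both arrays that stood apart and -0.71 for the mean over its probes. Itgad was called too, but no array in 85% O2 at P14 was well above background for it, and with another background correction (normexp) the difference was 0.04. Without both arrays the calls for Itga2 and Lama1 were lost. On the positive side stood Itgb4 (0.91, adjusted p = 0.00117), Itgb1 (0.77, adjusted p = 0.000129) and Lama5 (0.58, adjusted p = 0.000171). For Itgb6 the difference between ages was 0.01 (95% confidence interval -0.35 to 0.38). Among the markers the same interaction was called lower for 6 and higher for 1 of 10 type II markers (median -0.34), higher for 6 and lower for 0 of 10 smooth muscle markers (0.65), lower for 4 and higher for 1 of 10 type I (-0.15) and of 11 leukocyte markers (-0.12), and lower for 2 and higher for 1 of 10 fibroblast markers (0.04), and their part in it was not tested. With the authors' processed values 5 members were called more positive and 13 more negative.

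Over normal development in 21% O2, 21 of 38 members differed between P5 and P14 in scrambled mice, 15 higher and 6 lower at P14, or 55.3%, where 53.3% of all genes did (27.9% higher, 25.4% lower); the median log2 fold change was 0.23 for the members and 0.02 for all genes. Lama1 fell from 0.85, 1.28, 0.92 and 1.12 at P5 to -0.78, -0.85, -0.85 and -1.05 at P14, a log2 fold change of -1.92 ± 0.16 (3.79-fold lower, adjusted p = 5.19e-10, limma), and no other member fell by as much. Itga11 rose by 1.34 ± 0.12 (adjusted p = 1.23e-09) and Itga8 by 1.21 ± 0.11 (adjusted p = 2.83e-09). Itgam rose by 1.60 ± 0.30 (adjusted p = 7.37e-05; 0.0632 by the methods' test), with 1.21 without both arrays that stood apart and 0.92 for the mean over its probes. Itgae was not well above background on any array of scrambled mice in 21% O2 at P5. It was at least 2.36-fold higher at P14 (limma adjusted p = 0.000268, normalized means -7.24 and -4.90, 0.42 with normexp). However, it passed the filter only through groups at P14, which built a difference into its selection. Itgb1 and Lama5, both higher in 85% O2, were lower at P14 than at P5 in 21% O2, at -0.64 (adjusted p = 8.86e-06, brightest probe) and -0.50 (adjusted p = 7.64e-06), while the further Itgb1 probe gave -0.07 and was not called. By their brightest probes, neither nidogen was called. Beside these values, 8 of 10 type I markers (median 0.63), 8 of 10 endothelial (0.43) and 8 of 11 leukocyte markers (0.53) were called higher and none lower at P14, of 10 fibroblast markers 5 were higher and 2 lower (0.27), and of 8 platelet markers 1 was higher and 5 lower (-0.45). Their part in the member results was not tested.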

How the data were processed

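Whole-lung total RNA of 32 mice was hybridized to 1-colour (Cy3) Agilent mouse gene expression arrays, which were scanned and extracted with Agilent Feature Extraction 10.7.3.1 (annotation build mm9). By the study's methods, IMGM Laboratories (Munich) carried out the microarray work. The deposited scanner files hold spot intensity values, background-subtracted and detrended within each array and not normalized between arrays. The authors' processed values are deposited on a log2 scale in a table of all samples and served as an alternative. Here the log2 of the processed signal was taken, the 75th percentile of each array subtracted, and outlier spots (0.439%) dropped. No spot was saturated. Probes detected well above background in all 4 mice of some group were tested, which left 35982 probes at P5, 38455 at P14 and 39160 over both ages. A gene was represented by the tested probe with the highest mean over all arrays.

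Groups came from the labels. Oxygen and antimiR comparisons used 1 mean per group over the 16 arrays of an age, and comparisons between ages all 32 arrays, with R 4.3.3, the package limma at version 3.58.1 and Benjamini-Hochberg adjustment over all probes tested, called at an adjusted p under 0.05. The scripts were tested on simulated data. The number of arrays limits the precision. The members and gene lists were chosen with earlier results of these data known. Values per mouse were to be given for called members with an absolute log2 fold change of at least 1 at either age and for the 3 smallest p-values of the antimiR comparisons in 85% O2; members were also named for the 5 largest called changes between ages, and list genes for the 3 largest called changes. The values per mouse of Itga8, Itga11, Itgb2, Lama1, Lama3 and Lama5 were added after their values were seen. The alternatives changed the background correction, normalization, probe filter, samples in the fit, test (the Welch test that the methods name), probe summary, pairing and arrays used. Mice with the same replicate number came from no shared animal or litter by the labels, and their deviations did not correlate throughout, so replicates were not paired. Probe positions are those of the array files (mm9), and sequences come from RefSeq (GRCm38.p6). Nothing states the RNA kit beyond doubt, since the labels name miRNeasy and the methods peqGOLD. The values of 1 member are not reported here, and it stays in the counts.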

Additional observations from a re-analysis of the deposited data

Results flagged for a closer look

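In 120 groups of 4 mice, covering 15 of the 38 members tested, 5 had a mouse whose gap to the nearest of the other 3, divided by the range of the group, was above Dixon's 95% critical value, which chance gives in about 1 in 20 groups. Itgam at P14 in 21% O2 was 5.5 in antimiR-34a mouse 1 against 6.94 to 7.01 in the others, which is the array with the high 75th percentile described above. Itga11 at P5 in 85% O2 was -0.76 in antimiR-34a mouse 3 against -0.50 to -0.45. Itga2 at P14 in 21% O2 was -2.57 in antimiR-34a mouse 2 against -1.99 to -1.95. Itgb1 at P14 in 21% O2 was 2.69 in antimiR-34a mouse 3 against 2.51 to 2.54. Itgb5 at P5 in 85% O2 was 3.64 in scrambled mouse 3 against 3.81 to 3.83.

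The oxygen difference in scrambled mice differed between P5 and P14, by the interaction test in limma, for Itgam (-1.30), Itga11 (-1.19), Itgb2 (-1.01) and Nid2 (-0.99). Itgad measured -2.07, but no array in 85% O2 at P14 was well above background for it, and with normexp the value was 0.04. Age and slide cannot be told apart in these values.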

How the results depend on the processing

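The counts of called members under the alternatives stayed within 1.5 times those reported, with 4 exceptions. The Welch test of the study's methods called 12 members for oxygen in scrambled mice at P5 (8 higher, 4 lower) in place of 19, and 10736 of all 35982 probes in place of 15812. Without both arrays of unlike brightness, 1 member was called for antimiR-34a in 21% O2 at P14 and 2 for the difference of that effect between oxygen levels, in place of 0 each. Leaving out scrambled mouse 4 alone gave 1 call in the first of these. For the reason given above, these antimiR calls are not read as results. Leaving out single mice gave 15 to 18 calls at P5 and 23 to 26 at P14 for oxygen in scrambled mice, 20 to 24 and 26 to 27 in antimiR-34a mice, 14 to 17 for age by oxygen, 20 to 25 for age, and 0 to 1 for antimiR-34a in 21% O2 at P14, with 0 in each remaining antimiR comparison. Quantile normalization and the authors' processed values each gave 14 members called higher and 5 lower for oxygen at P5, in place of 16 and 3, and the authors' values gave 5 and 13 for age by oxygen, in place of 7 and 10. Without both arrays of unlike brightness, 23 members were called for oxygen in scrambled mice at P14 (12 higher, 11 lower). Normexp shifted the median of all probes by 0.17 for oxygen at P14 in scrambled mice and by 0.12 for age by oxygen; in antimiR-34a mice at P14 the shifts were 0.12 with normexp, 0.19 with quantile normalization and 0.20 with the authors' values.

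The replicate number as a block is not a pairing given by the labels; same-numbered mice had correlations of -0.35 to 0.50, and in no comparison did every mouse correlate best with its own number. With this replicate block, 18 and 25 members were called for oxygen in scrambled mice at P5 and P14, 22 and 27 in antimiR-34a mice, 17 for age by oxygen, 21 for age and 0 in the antimiR comparisons. The slide as a fixed block was not run, because groups on a slide share it and the term adds nothing to the fit within a slide.

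Direction turned for Itgad with normexp, to 0.04 for age by oxygen and 0.03 for antimiR-34a in 85% O2 at P5; the cause was not tested. The other turns were in oxygen values of scrambled mice that had not been called. With normexp they were 0.03 for Itga2b at P14, -0.01 for Itga6 at P5, 0.03 for Lama2 at P5 and -0.09 for Lamb1 at P14. With quantile normalization they were 0.04 for Itga2 and -0.04 for Itga6 at P5, and -0.13 for Itga6, -0.08 for Itga9, -0.07 for Itgb5, -0.12 for Lamb1 and -0.13 for Lamb2 at P14. With the authors' values they were 0.05 for Itga2 and -0.03 for Itga6 at P5, and -0.14 for Itga6, -0.10 for Itga9, -0.06 for Itgb5, -0.13 for Lamb1 and -0.14 for Lamb2 at P14. With the mean of all probes they were -0.14 for Itgal, -0.05 for Itgb3, 0.56 for Lama3 and 0.12 for Nid1 at P5. Without both arrays of unlike brightness they were -0.02 for Itga9, -0.02 for Lamb1 and -0.05 for Lamb2 at P14. Leaving out single mice gave ranges across 0 at P5 for Itga2b (-0.03 to 0.21), Itga6 (-0.06 to 0.05), Itga8 (-0.09 to 0.01), Itgb7 (-0.03 to 0.10), Lama2 (-0.11 to 0.09), Lama3 (-0.10 to 0.03) and Nid1 (-0.10 to 0.0026), and at P14 for Itga6 (-0.02 to 0.12), Itga9 (-0.02 to 0.09), Itgb2 (-0.16 to 0.05), Lamb1 (-0.02 to 0.09) and Lamb2 (-0.05 to 0.07). Among called members, the call for Itga10 at P14 was lost in 13 of 18 settings, that for Itgb5 at P5 in 12 of 17, Lamb2 at P5 in 9 of 17, Itga2 at P14 in 7 of 18, Lama1 at P5 in 6 of 17 and Itgad at P5 in 5 of 16. Itgad and Itgae lay near background, which limits their values.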
